A study of Mus musculus with 16 samples.

Results

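Lysosomes are acidic compartments in which enzymes break down proteins, sugars, lipids and nucleic acids that cells take up or discard. A membrane rich in glycosylated proteins encloses the enzymes, the vacuolar proton pump acidifies the interior, and most soluble hydrolases arrive from the Golgi by receptor-mediated sorting. Macrophages hold many lysosomes because they engulf particles and dying cells. The genes described here encode lysosomal hydrolases, their cofactors, lysosomal membrane proteins and subunits of the proton pump, with the cathepsin proteases left out. They were taken by gene symbol from a list of 35, of which 33 had at least 1 probe set carrying that symbol alone, among 18194 genes measured. Cd63 and Atp6v0c were not analysed here.

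The RNA came from cells sorted as macrophages from the peritoneal cavity of mice with ovarian tumours. It was measured on 16 Affymetrix mouse expression arrays. Female C57BL/6N mice aged 8 to 12 weeks received 1 mg of tamoxifen by mouth, and 3 weeks later ID8-luc ovarian cancer cells were injected into the peritoneum. After 4 weeks of tumour growth the cavity was washed out with 5 ml of buffer, and cells positive for CD45, CD11b and F4/80 were sorted by the chemokine receptor CCR2. The 4 groups, of 4 arrays each, were CCR2+ control, CCR2+ RbpjiΔEC, CCR2- control and CCR2- RbpjiΔEC. RbpjiΔEC mice lack the Notch effector Rbpj in endothelial cells after tamoxifen, so Rbpj in sorted-cell RNA does not check the deletion. The labels name neither the Cre driver nor the alleles of the controls. Nor do they say that the arrays of a group come from separate animals, so the p-values measure the spread between these arrays, which may be technical. The highest correlation between any 2 arrays was 0.993.

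The labels and the markers did not go together. Adgre1, which encodes F4/80, had a mean log2 level of 13.25 in CCR2+ and 9.21 in CCR2- arrays of control mice, although both had been sorted as F4/80+. Ccr2 itself had the lower mean in the arrays labelled CCR2+, 7.99 against 9.98 in control mice (difference −1.99, SE 0.63, limma adjusted p = 0.0184) and 7.69 against 8.94 in RbpjiΔEC mice (adjusted p = 0.135). All 14 markers of large peritoneal macrophages, among them Gata6 and Timd4, were higher in CCR2+ arrays of both genotypes. Their summed intensity was 107969 to 118922 there and 4386 to 5471 in the CCR2- arrays. All 12 measured B cell markers of 14 listed were lower in CCR2+ arrays, with summed intensities of 3436 to 3858 against 71774 to 73940. None of the B cell markers was at the level of the array's blank controls in either CCR2- group. The summed markers of monocytes and small peritoneal macrophages were 5114 to 9023 in CCR2+ and 17553 to 28883 in CCR2- arrays. Those of dendritic cells were 4409 to 6377 and 8726 to 12943. Of 7 and 11 measured, 4 and 8 were lower in CCR2+ control arrays (limma adjusted p below 0.05) and 0 and 1 higher. Among all genes 21.4% were lower and 19.4% higher. The deposited columns also differed in kind, since 100% of the CCR2- values and 2.58% to 2.91% of the CCR2+ values were whole numbers over a divisor of at most 22 (tolerance 0.001). Differences between the labels therefore cannot be told apart from differences in cell content or in how the columns were made. Whether labels or columns were exchanged was not tested, and an exchange would turn the sign of every label difference given below. CCR2+ and CCR2- below mean arrays that carry that label.

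Some of the genes carry a promoter element that the MiT family of transcription factors, which includes Tfeb, Tfe3, Mitf and Tfec, is known to bind in lysosomal genes. Its core is CACGTG, which reads the same on both strands. RefSeq promoters of build GRCm38.p6, from 250 bases before to 50 bases after the start of transcription, were matched for 28 of the 35 genes. CACGTG was in 7 of the 28 (25%), against 8.09% of 27025 genes. The longer form GTCACGTG, searched on both strands and containing the core, was in 5 (17.9%, against 2.55% of genes), and TCACGTGA was in 2 (7.14%, against 1.12%). The 7 windows are shown because they hold these letters, in capitals, each written along the strand of its gene. They have 12 bases on either side, except that the Lamp1 window is cut just before the start of transcription.
Lamp1, chr8:13159088-13159160, plus strand: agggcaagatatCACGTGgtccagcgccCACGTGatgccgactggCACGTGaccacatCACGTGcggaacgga
Mcoln1, chr8:3500436-3500491, plus strand: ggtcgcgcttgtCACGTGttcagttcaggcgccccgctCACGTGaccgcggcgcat
Glb1, chr9:114401018-114401047, plus strand: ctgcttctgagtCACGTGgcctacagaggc
Naglu, chr11:101070009-101070038, plus strand: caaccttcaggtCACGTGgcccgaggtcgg
Gaa, chr11:119267811-119267840, plus strand: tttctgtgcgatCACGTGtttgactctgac
Lgmn, chr12:102439124-102439153, minus strand: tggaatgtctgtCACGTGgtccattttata
Atp6v1a, chr16:44139373-44139402, minus strand: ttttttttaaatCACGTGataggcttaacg
Lamp1 held 4 copies, between 61 and 15 bases upstream of the start, and Mcoln1 held 2, at 71 and 45 bases. The single copies lay 48 (Glb1), 49 (Lgmn), 73 (Naglu), 131 (Atp6v1a) and 140 (Gaa) bases upstream. A match says only that the letters are there.

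Most of the lysosomal genes were higher in the CCR2+ than in the CCR2- arrays, in both genotypes. Each gene was read on its probe set of highest mean. In control mice 28 of 33 were higher and 2 were lower (limma adjusted p below the threshold of 0.05, 4 arrays against 4), where 19.4% of all genes were higher and 21.4% lower. In RbpjiΔEC mice 27 were higher and 1 was lower, against 18.1% and 21.0% of all genes. The median difference of the 33 genes was 1.01 in control and 0.94 in RbpjiΔEC mice on the log2 scale, and that of all genes was −0.03 in each. With each array centred on its median instead, the medians were 1.35 and 1.25, and with the deposited values unchanged 1.40 and 1.54. All 4 CCR2+ arrays lay above all 4 CCR2- arrays for 26 of the 33 in control mice (17.9% of all genes) and for 25 in RbpjiΔEC mice (17.4%). In all, 27 genes were higher in both genotypes, and 15 of them were at least 2-fold higher in both. In RNA of many cells together, fewer cells of a type and less RNA per cell cannot be told apart.

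**Figure D1:**
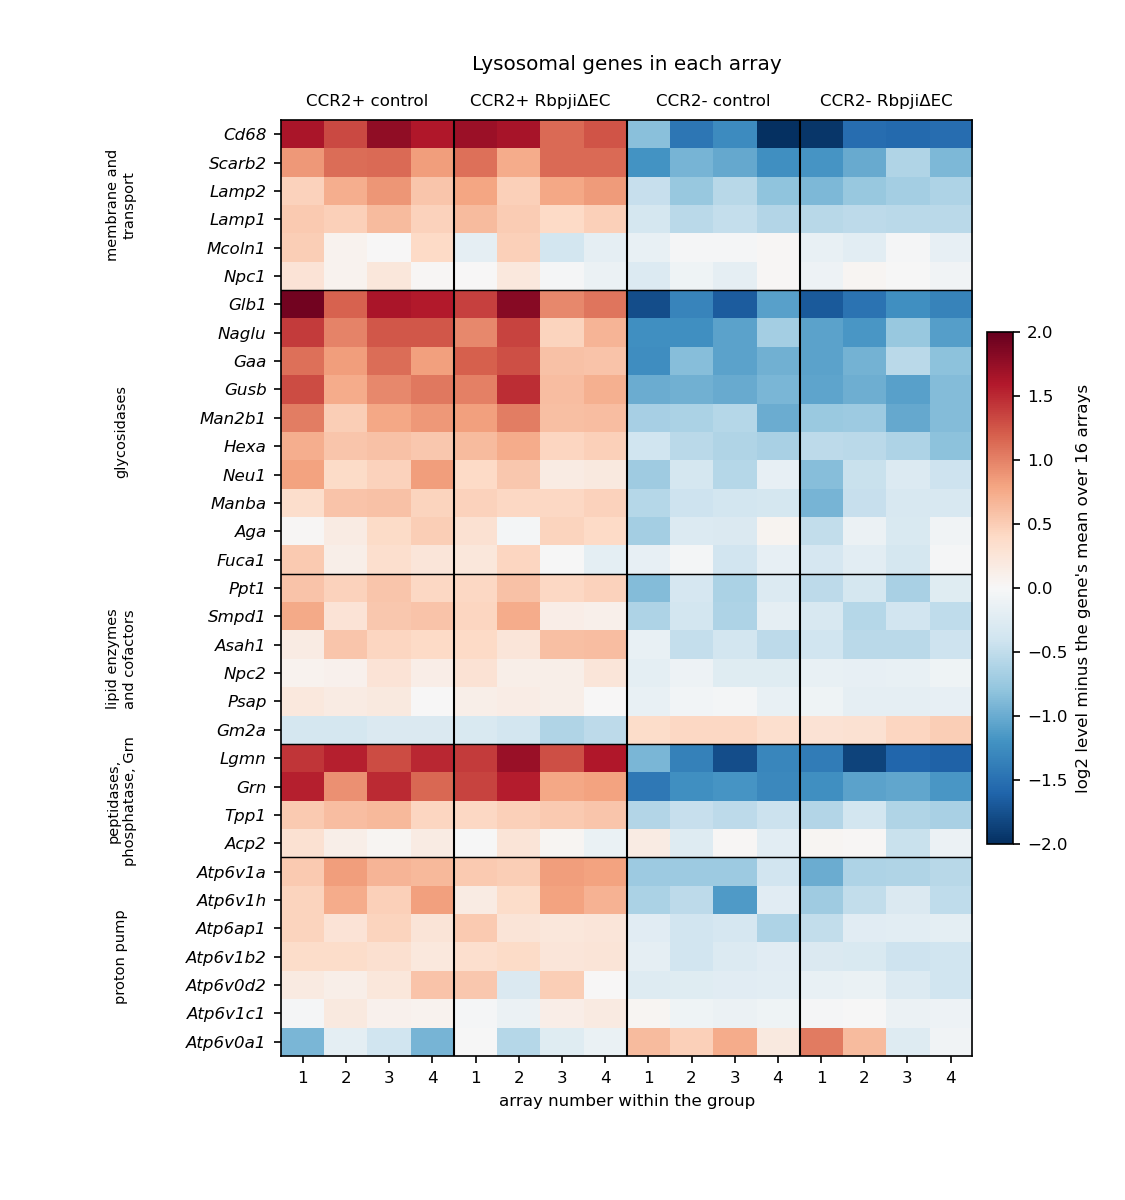
The colours give the log2 level of each of the 33 lysosomal genes in each of the 16 arrays, minus that gene's mean over all arrays, with genes in rows by role and arrays in columns by group. Each gene is shown by its probe set of highest mean. The CCR2+ columns are red and the CCR2- columns blue for most genes, and Gm2a and Atp6v0a1 run the other way.

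Membrane and transport proteins were represented by 6 measured genes, of which 5 were higher in CCR2+ arrays in control mice and 4 in RbpjiΔEC mice (medians 1.16 and 1.25). Cd68, a heavily glycosylated protein of macrophage lysosomes and late endosomes, read 12.13, 11.83, 12.27 and 12.10 (log2 level) in CCR2+ control arrays 1 to 4 and 9.67, 9.06, 9.25 and 8.52 in the CCR2- control arrays. In RbpjiΔEC mice it read 12.21, 12.15, 11.64 and 11.76 in CCR2+ and 8.55, 8.99, 8.94 and 8.98 in CCR2- arrays. The labels were far apart for Cd68 in both genotypes, with 1 low array, the first, among the CCR2- RbpjiΔEC arrays. Its means differed by 2.96 in control mice (7.76-fold, SE 0.20, limma adjusted p = 3.1e-09) and by 3.08 in RbpjiΔEC mice (8.43-fold, adjusted p = 1.87e-09).

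Scarb2, which carries glucocerebrosidase to lysosomes, was higher in CCR2+ arrays by 2.08 (SE 0.13, adjusted p = 1.09e-09) in control and 1.94 (adjusted p = 2.69e-09) in RbpjiΔEC mice. The abundant membrane glycoproteins Lamp1 and Lamp2 had smaller differences with little spread. Lamp1 read 13.13, 13.08, 13.23 and 13.05 in CCR2+ and 12.25, 12.06, 12.12 and 12.01 in CCR2- arrays of control mice. The same gene read 13.24, 13.10, 12.99 and 13.07 in CCR2+ and between 12.05 and 12.07 in CCR2- RbpjiΔEC arrays. Neither genotype had any overlap of the labels for Lamp1. The difference was 1.01 (SE 0.08, adjusted p = 1.34e-08) in control and 1.04 (adjusted p = 9.51e-09) in RbpjiΔEC mice. Lamp2, which also has a part in autophagy, differed by 1.30 (SE 0.11, adjusted p = 7.82e-08) and 1.46 (adjusted p = 1.87e-08).

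The remaining 2 membrane genes encode an ion channel and a sterol exporter. Npc1, which moves cholesterol out of the lysosome, read 11.34, 11.12, 11.28 and 11.08 in CCR2+ and 10.79, 10.97, 10.88 and 11.08 in CCR2- arrays of control mice. The 2 groups met at 11.08, and the difference of 0.27 (SE 0.09, adjusted p = 0.0244) was small. In RbpjiΔEC mice the difference was 0.06 (adjusted p = 0.677). The Npc1 call in control mice was lost when CCR2+ control array 1 (adjusted p = 0.0783) or 3 (0.0662), or CCR2- control array 1 (0.0782) or 3 (0.06), was left out, and when only these 2 groups were fitted (0.056). Mcoln1, the lysosomal calcium channel with 2 copies of CACGTG, differed by 0.28 (SE 0.15, adjusted p = 0.154) in control and 0.08 (adjusted p = 0.743) in RbpjiΔEC mice. It differed by more between arrays than between labels, with CCR2+ RbpjiΔEC arrays from 9.23 to 10.07. The 3 genes not called in either genotype, Mcoln1, Acp2 and Atp6v1c1, were called higher in control mice when arrays were centred on their medians (differences 0.60, 0.73 and 0.66, adjusted p = 0.0211, 0.000334 and 0.0018).

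Glycosidases remove sugars from glycoproteins, glycolipids and glycosaminoglycans, and the group of 10 so named here also holds Aga, an amidase. All 10 genes were higher in CCR2+ arrays in both genotypes, with medians of 1.33 in control and 1.40 in RbpjiΔEC mice. Glb1, the lysosomal beta-galactosidase, read 12.06, 11.32, 11.77 and 11.72 in CCR2+ and 8.35, 8.81, 8.47 and 9.05 in CCR2- arrays of control mice. Its difference of 3.05 (8.26-fold, SE 0.20, adjusted p = 1.92e-09) was the largest of the 33 in control mice. In RbpjiΔEC mice Glb1 read 11.50, 11.95, 11.09 and 11.20 in CCR2+ and 8.44, 8.65, 8.91 and 8.80 in CCR2- arrays, a difference of 2.74 (adjusted p = 7.63e-09). The lowest CCR2+ array of Glb1 was far above the highest CCR2- array in each genotype.

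Naglu, which acts on heparan sulfate, read 10.64, 10.24, 10.50 and 10.50 in CCR2+ and 8.03, 8.03, 8.18 and 8.57 in CCR2- arrays of control mice. It differed by 2.27 (SE 0.17, adjusted p = 1.37e-08) in control and 1.88 (adjusted p = 1.38e-07) in RbpjiΔEC mice. The glycogen-degrading Gaa differed by 2.00 (SE 0.16, adjusted p = 3.36e-08) and 1.75 (adjusted p = 1.7e-07), and the beta-glucuronidase Gusb by 1.99 (SE 0.15, adjusted p = 1.76e-08) and 1.95 (adjusted p = 2.2e-08). These 4 enzymes were at least 3.37-fold higher in both genotypes. Next came the alpha-mannosidase Man2b1 (1.51 in control, 1.60 in RbpjiΔEC mice) and Hexa, the alpha subunit of beta-hexosaminidase (1.14 and 1.19).

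Smaller differences were found for the sialidase Neu1 (1.07 and 0.82), the beta-mannosidase Manba (0.92 and 0.94), the aspartylglucosaminidase Aga (0.57 and 0.52) and the fucosidase Fuca1 (0.50 and 0.35). Fuca1 and Aga had overlapping arrays in 1 genotype each. Aga read 11.03, 11.17, 11.40 and 11.50 in the CCR2+ control arrays, and its highest CCR2- control array read 11.06. The Fuca1 call in RbpjiΔEC mice was close to the threshold (SE 0.13, adjusted p = 0.0464). It was lost when CCR2+ RbpjiΔEC array 1 (0.113) or 2 (0.158) or CCR2- RbpjiΔEC array 1 (0.109), 2 (0.0761) or 3 (0.116) was left out, with array weights (0.197), and when only these 2 groups were fitted (0.0804).

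**Figure D2:**
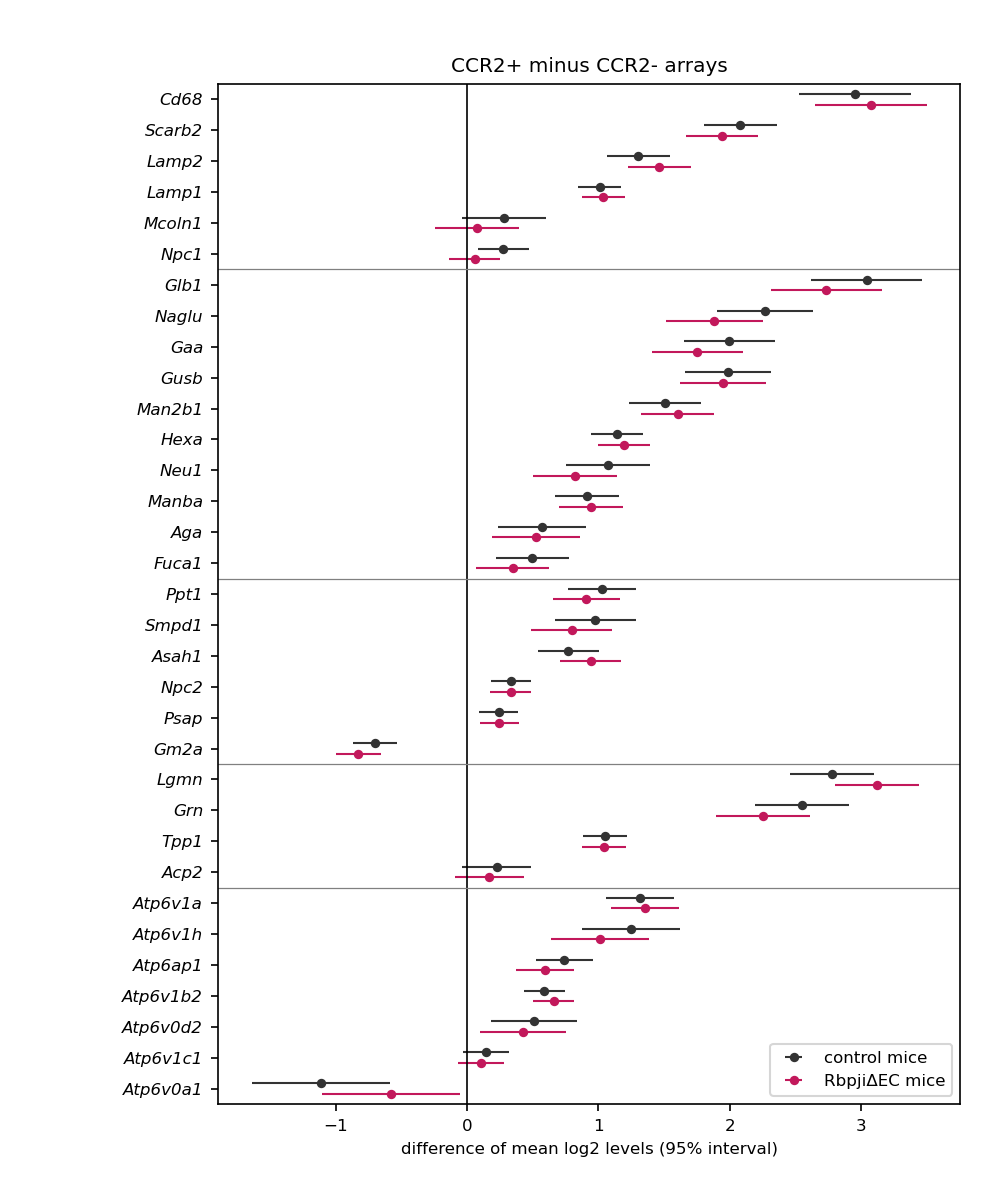
Each point is the difference of the mean log2 levels, CCR2+ minus CCR2-, of 1 lysosomal gene, with its 95% interval from the limma fit, in control (dark) and RbpjiΔEC (pink) mice. Differences run from −1.12 (Atp6v0a1) to 3.05 (Glb1) in control mice and from −0.83 (Gm2a) to 3.12 (Lgmn) in RbpjiΔEC mice.

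Of the 6 genes for lipid hydrolysis and lipid-binding cofactors, 5 were higher and 1 was lower in CCR2+ arrays in both genotypes, with medians of 0.55 and 0.56. Ppt1, which removes palmitate from proteins, differed by 1.03 (SE 0.12, adjusted p = 2.78e-06) in control and 0.91 (adjusted p = 1.16e-05) in RbpjiΔEC mice. That is the reading of its brightest probe set, and the mean of its 5 probe sets was lower in CCR2+ control arrays (−0.36, adjusted p = 0.0293). The acid sphingomyelinase Smpd1 differed by 0.98 and 0.80, and the acid ceramidase Asah1, which takes over its product, by 0.77 and 0.94 (SE 0.15 and 0.11). Npc2, which hands cholesterol to Npc1, differed by 0.33 in each genotype (SE 0.07, adjusted p = 0.00142 and 0.00164). Psap, the precursor of the saposins that help lipid hydrolases reach their substrates, differed by 0.24 and 0.25 (SE 0.07, adjusted p = 0.0107 and 0.0102). The arrays of the labels did not overlap for these 5 genes.

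Gm2a, which encodes the activator protein that presents ganglioside to beta-hexosaminidase A, ran the other way. It read 11.86, 11.86, 11.92 and 11.92 in CCR2+ and 12.58, 12.62, 12.63 and 12.55 in CCR2- arrays of control mice. In RbpjiΔEC mice it read 11.91, 11.85, 11.60 and 11.68 in CCR2+ and 12.50, 12.52, 12.64 and 12.70 in CCR2- arrays. Every CCR2+ array was below every CCR2- array. The difference was −0.70 (1.63-fold lower, SE 0.08, adjusted p = 1.83e-06) in control and −0.83 (1.78-fold lower, adjusted p = 2.52e-07) in RbpjiΔEC mice. Hexa, whose product works with this cofactor, was higher by 1.14 in the same control arrays. The Gm2a call depended on scaling. Centred on array medians it was −0.15 (adjusted p = 0.491) in control mice. With the deposited values unchanged it was −0.10 (adjusted p = 0.742) in control and −0.17 (adjusted p = 0.487) in RbpjiΔEC mice.

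The 4 genes for peptidases, acid phosphatase and progranulin had medians of 1.80 and 1.65, with 3 higher in both genotypes. Lgmn, an asparaginyl endopeptidase that also activates cathepsins, read 11.74, 11.85, 11.61 and 11.81 in CCR2+ and 9.40, 8.95, 8.54 and 8.999 in CCR2- arrays of control mice. Among RbpjiΔEC arrays it read 11.71, 12.04, 11.60 and 11.90 in CCR2+ and 8.91, 8.45, 8.73 and 8.68 in CCR2-. The gap between labels was more than 2 log2 units in either genotype. The difference of means was 2.78 (6.88-fold, SE 0.15, adjusted p = 1.79e-10) in control and 3.12 (8.70-fold, adjusted p = 3.96e-11) in RbpjiΔEC mice.

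Grn, the precursor of granulins that is processed in lysosomes, read 12.25, 11.61, 12.20 and 11.85 in CCR2+ and 9.28, 9.49, 9.52 and 9.42 in CCR2- arrays of control mice. Its difference was 2.55 (5.87-fold, SE 0.17, adjusted p = 2.39e-09) in control and 2.25 (4.77-fold, adjusted p = 1.17e-08) in RbpjiΔEC mice. The CCR2+ RbpjiΔEC arrays of Grn had the widest spread of the 33 genes in that group (SD 0.398), and Atp6v0d2 nearly the same (0.397). Tpp1, a tripeptidyl peptidase, differed by 1.05 (SE 0.08, adjusted p = 1.37e-08) and 1.04 (adjusted p = 1.43e-08). The acid phosphatase Acp2 differed by 0.22 (SE 0.12, adjusted p = 0.17) in control and 0.17 (adjusted p = 0.321) in RbpjiΔEC mice, on the probe set with the highest mean.

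**Figure D3:**
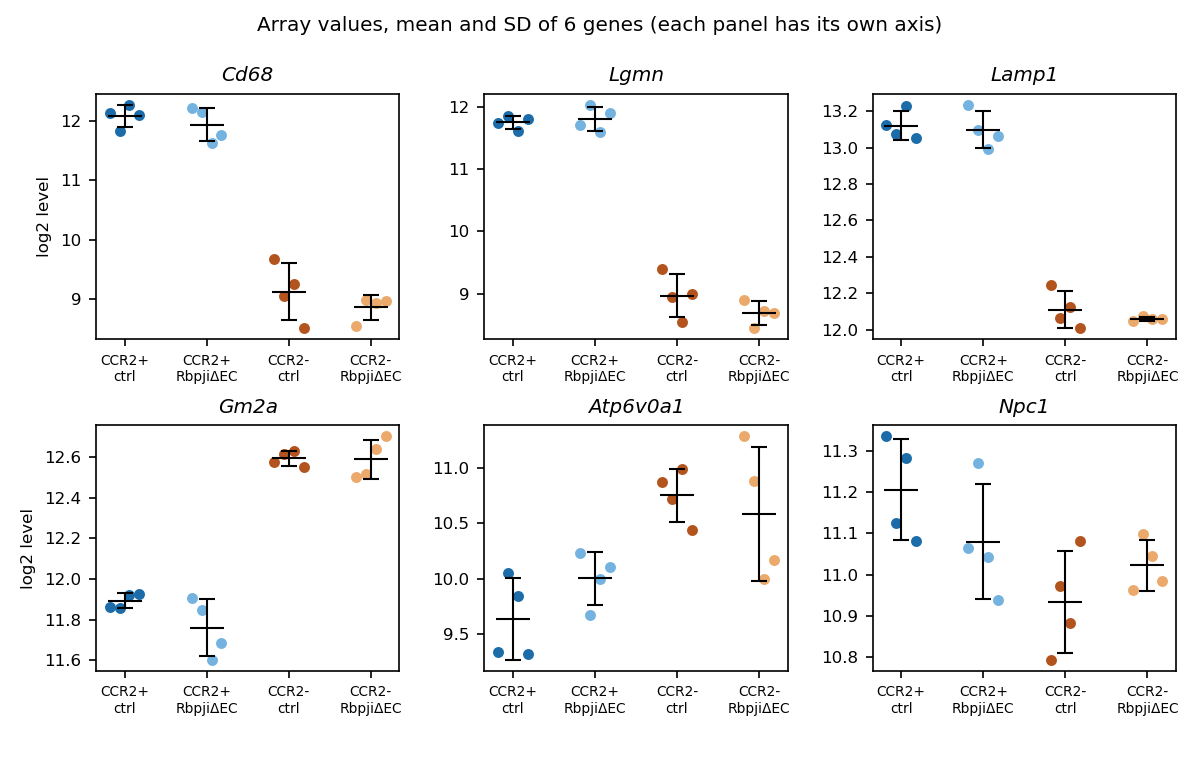
Each panel plots the log2 level of 1 gene in the 16 arrays (points, 4 per group) with the group mean and SD (bars), on an axis of its own that does not start at 0. Each gene is shown by its probe set of highest mean. Cd68, Lgmn and Lamp1 are higher in the CCR2+ groups, Gm2a is lower, Atp6v0a1 is lower in control mice with wide spread, and the Npc1 groups overlap.

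The vacuolar proton pump has a peripheral sector that hydrolyses ATP and a membrane sector that passes protons. Of 7 measured subunits, 5 were higher and 1 lower in CCR2+ arrays in control mice, and 5 were higher and 0 lower in RbpjiΔEC mice (median 0.59 in each). Atp6v1a, the catalytic subunit of the peripheral sector, read 12.50, 12.81, 12.65 and 12.62 in CCR2+ and 11.24, 11.25, 11.24 and 11.58 in CCR2- arrays of control mice. The labels did not overlap, and 1 CCR2- array, the fourth, stood above the other 3. The Atp6v1a difference was 1.32 (2.49-fold, SE 0.12, adjusted p = 1.52e-07) in control and 1.35 (adjusted p = 1.09e-07) in RbpjiΔEC mice. Atp6v1h, a regulatory subunit of the same sector, differed by 1.25 (SE 0.18, adjusted p = 2.04e-05) and 1.01 (adjusted p = 0.000186).

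The accessory subunit Atp6ap1 differed by 0.74 (SE 0.10) in control and 0.59 in RbpjiΔEC mice, and Atp6v1b2, the nucleotide-binding partner of Atp6v1a, by 0.59 (SE 0.07) and 0.66. Atp6v1c1, which links the peripheral and membrane sectors, differed by 0.14 (SE 0.08, adjusted p = 0.185) and 0.10 (adjusted p = 0.359). Atp6v0d2, an isoform known from osteoclasts and macrophages, read 6.93, 6.87, 6.96 and 7.32 in the CCR2+ control arrays and 6.49, 6.50, 6.52 and 6.53 in the CCR2- control arrays. The blank control probe sets of the arrays had means of 6.35 to 6.51, so the CCR2- values of Atp6v0d2 lay at about that floor. Its differences of 0.51 (SE 0.15, adjusted p = 0.0137) and 0.42 (adjusted p = 0.0379) are therefore set by a low signal. The RbpjiΔEC call was lost without CCR2+ RbpjiΔEC array 1 (0.133) or 3 (0.13) or CCR2- RbpjiΔEC array 3 (0.0756) or 4 (0.103), and the control call without CCR2+ control array 4 (0.0525). Centring on array medians ended both Atp6v0d2 calls (0.107 and 0.268).

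Atp6v0a1 encodes the membrane sector subunit through which protons enter and leave. On its brightest probe set it was the only one of the 7 pump subunits described here that measured lower in CCR2+ arrays. Its other probe sets measured higher in control mice, by 1.11 (limma adjusted p = 0.000219), 0.32 and 0.15. The brightest read 9.34, 10.06, 9.85 and 9.32 in CCR2+ and 10.88, 10.72, 10.99 and 10.44 in CCR2- arrays of control mice. In RbpjiΔEC mice it read 10.24, 9.67, 10.00 and 10.11 in CCR2+ and 11.29, 10.88, 9.99 and 10.17 in CCR2- arrays. The labels were apart in control mice and overlapped in RbpjiΔEC mice, where CCR2- arrays 3 and 4 read like the CCR2+ arrays. The difference was −1.12 (2.17-fold lower, SE 0.25, adjusted p = 0.00161) in control and −0.58 (adjusted p = 0.0771) in RbpjiΔEC mice. Without CCR2- RbpjiΔEC array 3 it was −0.78 (adjusted p = 0.0199), and without array 4 it was −0.72 (adjusted p = 0.0433). The 2 genotypes were not shown to differ in this gene (interaction 0.53, SE 0.35, adjusted p = 0.999).

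Different probe sets of a gene did not always give the same answer. The 33 genes had 75 probe sets, and 22 genes had more than 1. Fitted on all 34958 probe sets, 56 of the 75 were higher and 7 lower in CCR2+ control arrays, where 20.9% of all probe sets were higher and 20.7% lower. In RbpjiΔEC mice 54 were higher and 5 lower, against 18.8% and 20.3%. Of the 22 genes, 17 had differences of 1 sign in all their probe sets in each genotype. In control mice 4 genes, Atp6v0a1, Man2b1, Neu1 and Ppt1, had probe sets called in both directions, and in RbpjiΔEC mice 1, Ppt1, had them.

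For Ppt1 the control differences of its 5 probe sets were 1.03, 0.71, −0.37, −1.53 and −1.66, the brightest being the highest. Taking the mean of all its probe sets turned Ppt1 to −0.36 (adjusted p = 0.0293) in control and −0.18 (adjusted p = 0.304) in RbpjiΔEC mice. Atp6v0a1 was lower on the brightest of its 4 probe sets and differed by 1.11 (adjusted p = 0.000219), 0.32 and 0.15 on the others. Its lower level was seen in 1 probe set of 4, and the mean of all gave 0.12 (adjusted p = 0.51). The phosphatase Acp2 was not called on its brightest probe set, but its other probe sets differed by 2.68 (adjusted p = 5.35e-11) and 2.19 (adjusted p = 2.83e-09) in control and by 2.36 and 2.25 in RbpjiΔEC mice. Lamp2 ranged from 1.29 to 2.92 and Npc2 from 0.33 to 2.23 in control mice, all in the same direction. The Gm2a probe sets were −0.70, −0.75 and −0.25, of which the last was not called (adjusted p = 0.152) and is the dimmest. The second probe set of Man2b1 (−0.49) and the other 2 of Neu1 (−0.17 and −0.25) opposed the brightest. For Mcoln1 the other probe sets gave 0.65 (adjusted p = 8.8e-05) and −0.04, and for Atp6v1c1 0.88 and 0.41. Which transcript ends these probe sets read was not analysed here.

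**Figure D4:**
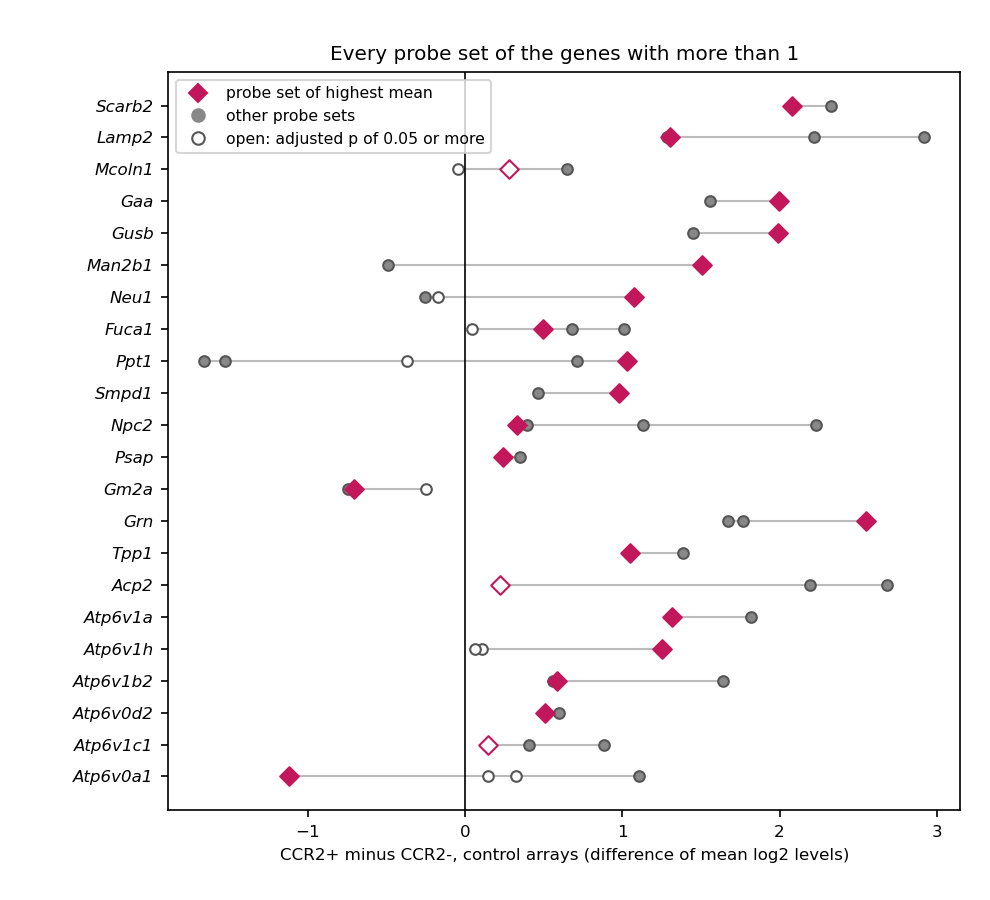
For the 22 lysosomal genes with more than 1 probe set, each marker is the CCR2+ minus CCR2- difference of mean log2 levels in control mice for 1 probe set. Diamonds mark the probe set of highest mean, circles the others, and open markers an adjusted p of 0.05 or more. Ppt1 runs from −1.66 to 1.03, Atp6v0a1 from −1.12 to 1.11 and Acp2 from 0.22 to 2.68.

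The 7 genes with CACGTG in the promoter window had a median difference between labels of 2.00 in control and 1.75 in RbpjiΔEC mice, and the 19 measured genes with a matched promoter lacking it 1.03 and 0.91. The ranges overlapped, from 0.28 to 3.05 with the element and from −1.12 to 2.96 without it in control mice. Mcoln1, with 2 copies, had the smallest difference of the 7, and Lamp1, with 4, differed by 1.01. Cd68, whose matched promoter window lacks the letters, differed by 2.96.

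Other lysosomal genes, from lists beside the 33, also differed between the labels. The counts in this and the following paragraphs were read against the same shares of all genes as above. These were 19.4% higher and 21.4% lower in control mice, and 18.1% and 21.0% in RbpjiΔEC mice. Of 17 measured other hydrolases, 13 were higher and 1 lower in control mice (median 0.81) and 13 higher and 0 lower in RbpjiΔEC mice (0.68). Among them were Galc, the galactosylceramidase (2.47 in control mice), the phospholipase Pla2g15 (2.41) and the amidase Naaa, which was lower (−0.49). Of 13 cathepsins 7 were higher and 1 lower in control mice and 5 and 1 in RbpjiΔEC mice, with Ctsl at 4.23, Ctsd at 2.86 and Ctse at −1.09 in control mice. Of 16 other proton pump subunits 7 were higher and 1 lower in control mice (median 0.31) and 9 and 0 in RbpjiΔEC mice (0.29). Tcirg1, an alternative to Atp6v0a1 in the membrane sector, was higher by 1.06 (SE 0.14, adjusted p = 1.28e-05) in control mice, and Atp6v0d1, the alternative to Atp6v0d2, by 0.56 (adjusted p = 0.000537).

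Of 19 other lysosomal membrane proteins 9 were higher in each genotype, and 3 and 4 were lower. Among all genes 21.4% and 21.0% were lower, so these lower counts do not set the list apart. Slc11a1, a metal transporter of phagosomes, differed by 4.08 and Slc38a9, an amino acid sensor, by −1.25 in control mice. Of 12 genes for sorting of enzymes to the lysosome 9 were higher and 2 lower in control mice and 8 and 1 in RbpjiΔEC mice. The sorting receptor Sort1 was higher by 3.86 and Igf2r, the mannose 6-phosphate receptor, by 1.21 in control mice, and the adaptor Gga2 was lower (−2.83). Of 13 genes for fusion of endosomes with lysosomes 6 were higher and 1 lower in control mice and 4 and 0 in RbpjiΔEC mice, with Rilp, an effector of late endosome transport, at 2.36 in control mice.

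Of 17 measured genes for MiT factors and nutrient sensing at the lysosome, 11 were higher and 2 lower in control mice. In RbpjiΔEC mice 10 were higher and 3 lower. Among all genes 21.4% and 21.0% were lower. The transcription factors themselves differed from each other. Mitf was higher in CCR2+ arrays by 3.54 (SE 0.16, adjusted p = 2.03e-11) and Tfe3 by 1.45 (adjusted p = 7.11e-07) in control mice. Tfec averaged 9.67 in CCR2+ and 6.37 in CCR2- control arrays (limma adjusted p = 5.76e-10 on these values), the latter at the blank level. Taking for each CCR2- array the higher of its blank mean and its own value, the means were at least 9.44-fold apart. That bound is of means alone and has no interval. Tfeb differed by −0.24 (SE 0.14, adjusted p = 0.187) in control mice and was lower in RbpjiΔEC mice (−0.64, adjusted p = 0.00123). The genotypes were not shown to differ in Tfeb (interaction −0.40, SE 0.195, limma adjusted p = 0.999). The growth kinase Mtor was lower, with a difference of −0.68 in control mice.

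The second question of the design is whether loss of endothelial Rbpj changed the sorted cells. In the CCR2- arrays, with their higher sums of B cell and dendritic cell markers, these need not be macrophages. None of the 33 lysosomal genes was called between RbpjiΔEC and control mice, in CCR2+ or in CCR2- arrays (limma adjusted p), as for all genes, of which 0% were called in each label. Without adjustment, 0 of the 33 had p below 0.05 in either label, and 830 and 390 of all genes did. The arrays of the 2 genotypes were apart for 0 of the 33, and for 3.39% of all genes in CCR2+ and 1.56% in CCR2- arrays. The design had 4 arrays against 4, and the smallest adjusted p of any gene was 0.0835 in CCR2+ and 0.15 in CCR2- arrays.

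The intervals show how large a difference these arrays leave room for, taken gene by gene on the probe set of highest mean. They rest on the spread between arrays, which may be technical, so they need not bound a change between mice. The 95% interval of the genotype difference was within 1 log2 unit of 0 for all 33 genes in both labels. It was within 0.5 for 26 in CCR2+ and 27 in CCR2- arrays, with a median halfwidth of 0.276. The bounds reached from −0.73 to 0.89 in CCR2+ and from −0.70 to 0.53 in CCR2- arrays. The widest belonged to Atp6v0a1, the gene with the largest spread, and narrow ones to Psap (−0.20 to 0.10 in CCR2+ arrays) and Lamp1 (−0.19 to 0.14).

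**Figure D5:**
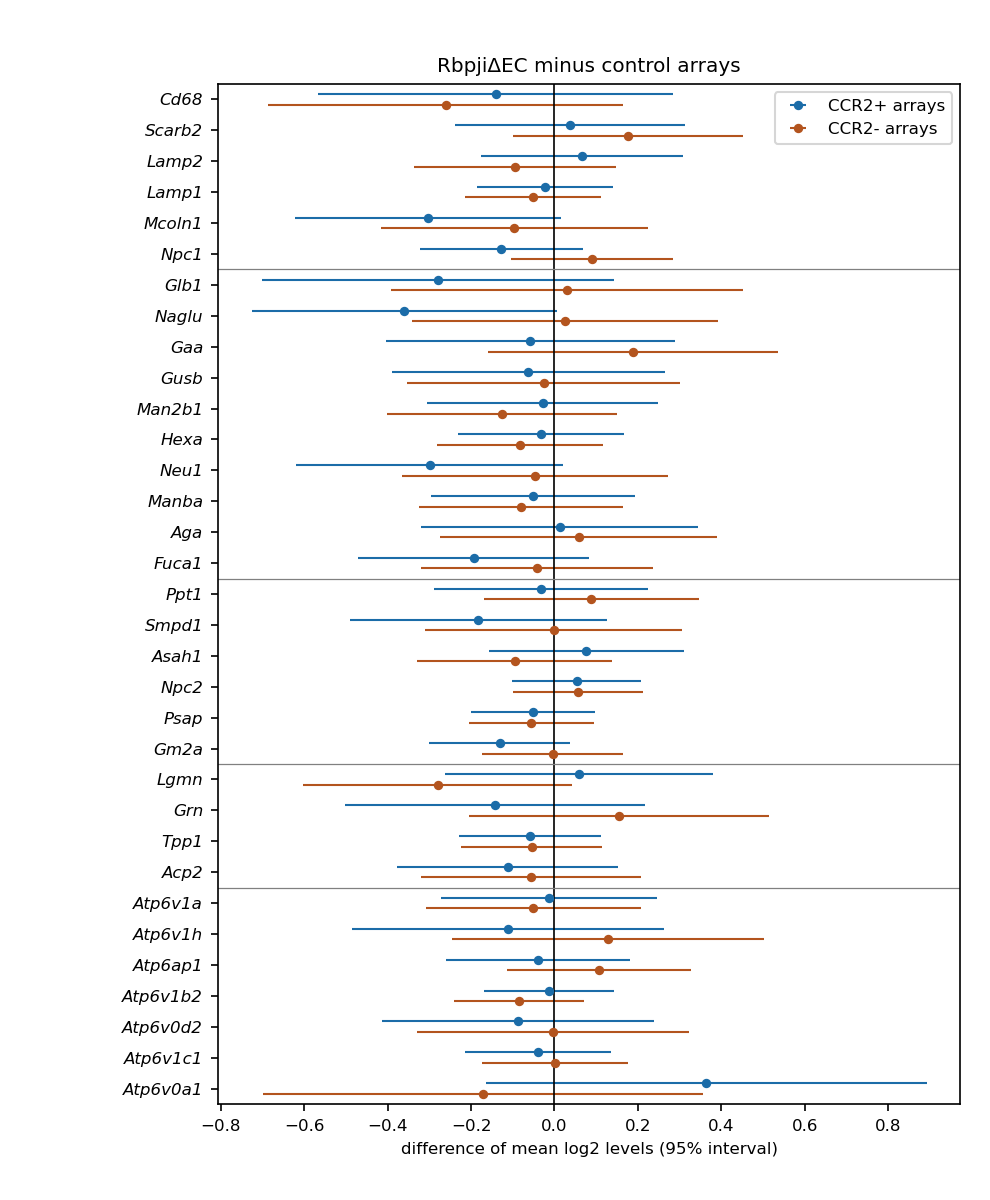
Points are differences of mean log2 levels, RbpjiΔEC minus control, of the 33 lysosomal genes in CCR2+ (blue) and CCR2- (orange) arrays, with 95% intervals from the limma fit. All intervals, each for the probe set of highest mean, include 0, and all lie within 1 log2 unit of 0.

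In CCR2+ arrays the difference was negative for 26 of the 33 (78.8%), where 52.5% of all genes were negative, with a median of −0.05 (all genes −0.01). In CCR2- arrays it was negative for 21 (63.6%, all genes 50.9%), with a median of −0.04. These are counts of signs of differences that were not called, in genes that share arrays. By role, 9 of 10 in the glycosidase group and 6 of 7 pump subunits were negative in CCR2+ arrays. So were 4 of 6 membrane genes, 4 of 6 lipid genes and 3 of 4 of the rest.

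On the probe sets of highest mean, the lowest genotype p among the 33 was that of Naglu in CCR2+ arrays. Naglu read 10.64, 10.24, 10.50 and 10.50 in control and 10.22, 10.60, 9.69 and 9.94 in RbpjiΔEC arrays. The second RbpjiΔEC array read like the controls and the other 3 were lower. The difference was −0.36 (SE 0.17, 95% interval −0.73 to 0.01, limma adjusted p = 0.966). Mcoln1 (−0.30, adjusted p = 0.966) and Neu1 (−0.30, adjusted p = 0.966) followed. Atp6v0a1 had the highest difference, 0.36 (SE 0.25, adjusted p = 0.966). In CCR2- arrays Lgmn had the lowest p (−0.28, SE 0.15, limma adjusted p = 1).

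In the CCR2+ RbpjiΔEC group array 2 had the highest level of its group for 17 of the 33 genes, and array 3 the lowest for 17. Counts of like size were seen in the other groups, with array 1 highest for 15 in CCR2+ control, array 1 lowest for 15 and array 4 highest for 14 in CCR2- control, and array 1 lowest for 15 in CCR2- RbpjiΔEC arrays. Glb1, Gusb, Naglu, Grn, Gaa, Mcoln1 and Smpd1, picked out after their values were seen, were all high in array 2 and lower in arrays 3 and 4. The 18S ribosomal RNA signal of these 4 arrays was 11.49, 13.09, 11.50 and 11.75 (log2 level), and that of the CCR2+ control arrays 12.96, 11.80, 12.90 and 13.58. The 3' minus 5' actin signal, a sign of RNA quality, was 0.445, 0.243, 0.416 and 0.441 in the CCR2+ RbpjiΔEC and 0.203, 0.27, 0.365 and 0.212 in their CCR2+ controls (two-sided exact permutation p = 0.0857). The 3' minus 5' signal of Gapdh was 0.0778, 0.253, 0.25 and 0.173 in the CCR2+ RbpjiΔEC arrays. In the CCR2+ control arrays it was 0.195, 0.156, 0.238 and 0.218, all within the RbpjiΔEC range. The 18S signal had exact permutation p = 0.171 between these genotypes, where the smallest possible is 0.0286. Their part in the genotype differences was not tested.

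Among cell type markers, the summed intensity of 10 measured neutrophil markers was 3762 in CCR2+ control array 2, against 1399 to 1652 in the other arrays of that group, and 7491 and 2781 in CCR2- control arrays 2 and 3. In RbpjiΔEC arrays it was 1329 to 1407 (CCR2+) and 1137 to 1330 (CCR2-). With both control arrays of number 2 left out, a choice made after seeing the data, 0 of the 33 lysosomal genes were called between genotypes, and 28 were higher and 2 lower in CCR2+ arrays of control mice. The summed endothelial markers were 1423 to 1539 in the CCR2+ control and 1552 to 1733 in the CCR2+ RbpjiΔEC arrays (exact permutation p = 0.0286). With 4 arrays against 4 that p is the smallest possible, and it was not adjusted for the other marker lists and comparisons. Of the 10 markers 0 were called singly, and Egfl7 had the largest difference (8.60 in control, 8.90 in RbpjiΔEC arrays). Cdh5, Tek, Tie1 and Emcn averaged 6.47 to 6.64 in CCR2+ control arrays, near the blank level of 6.35 to 6.51. Whether these sums reflect cells of those types, and their part in the levels of lysosomal genes, was not tested.

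Whether the genotype acted differently in the 2 labels was tested as an interaction. None of the 33 genes and 0% of all genes were called, and 0 of the 33 had an unadjusted p below 0.05 (555 of all genes did). The interaction differences of the 33 ran from −0.38 (Naglu) to 0.53 (Atp6v0a1), with a median of −0.05 and a lowest p of 0.114 by limma for Npc1 (adjusted p = 0.999). The calls of Npc1 and Atp6v0a1 in 1 genotype alone are therefore not shown to be differences between genotypes.

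Genes of the other lysosomal lists were not called between genotypes either. Each gene named next had the smallest unadjusted p of its own list in that comparison. In CCR2+ arrays these were Igf2r (−0.46, limma adjusted p = 0.966), Ctsw, a cathepsin of lymphocytes (0.49, adjusted p = 0.966), and the galactosidase Gla (−0.37, adjusted p = 0.966). In CCR2- arrays they were Lamtor1, a scaffold of nutrient sensing (−0.25, adjusted p = 1), and the pump subunit Atp6v1c2 (−0.40, adjusted p = 1). Tfeb, Tfe3, Mitf and Tfec differed between genotypes by −0.24, −0.26, −0.05 and −0.13 in CCR2+ arrays (adjusted p from 0.966 to 0.982). In CCR2- arrays Tfeb, Tfe3 and Mitf differed by 0.16, 0.09 and −0.17 (adjusted p = 1), and Tfec was not above the blank level.

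The spread among arrays of a group bounds these readings. The median SD of the 33 genes was 0.162 in CCR2+ control, 0.182 in CCR2+ RbpjiΔEC, 0.163 in CCR2- control and 0.143 in CCR2- RbpjiΔEC arrays. The largest SD in each group belonged to Atp6v0a1 (0.370), Grn (0.398), Cd68 (0.481) and Atp6v0a1 (0.606), in the same order. The smallest belonged to Gm2a (0.037), Manba (0.027), Atp6v0d2 (0.019) and Lamp1 (0.0099). For Atp6v0d2 that small spread stood at the blank level.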

How the data were processed

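The authors deposited 1 table of linear probe set intensities for 16 Affymetrix arrays, from total RNA of sorted cells per the labels' protocols. The normalization they applied was not given in the sources used here. Intensities were transformed to log2 and quantile normalized over all 16 arrays, without an intensity filter. Of the 45101 probe sets, 34958 had 1 gene symbol in the platform annotation, 932 had several and 9211 were not listed, and only the first kind was used. The probe set of highest mean stood for a gene, which left 18194 genes, and 0 symbols differed from RefSeq. The 4 group means were fitted with limma 3.58.1 in R 4.3.3 (lmFit, eBayes), p-values were adjusted over all 18194 genes (Benjamini-Hochberg, threshold 0.05), and single values were compared by two-sided exact permutation tests. Differences are of log2 levels. Of these steps, the limma fit was tested on simulated gene values. Their noise was drawn independently for each gene and array, and far fewer genes were changed than were called between the labels. The labels give no hybridization or scan batches. The 35 genes, the other lists and the rule for genes named (all 35, and of each other list the called genes with the largest differences or else the gene with the smallest p, besides a few fixed genes) were chosen with earlier results of these data known. Examples within a list are some of those the rule gives. Promoters are RefSeq's for GRCm38.p6. Alternatives changed the scaling, filter, probe set, variance model, weights, arrays and pairing, 1 at a time.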

Additional observations from a re-analysis of the deposited data

Results flagged for a closer look

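In 7 of 132 tests of a gene within a group of 4 arrays, 1 array stood far from the other 3 for its size of range, and chance alone flags about 1 in 20 groups. CCR2- RbpjiΔEC array 1 was such an array in 3 genes. There Cd68 read 8.5543 (others 8.94 to 8.99), the pump subunit Atp6v1a read 10.9729 (others 11.35 to 11.42) and the accessory subunit Atp6ap1 read 11.6359 (others 11.91 to 11.94), all lower than the rest. The same array had the lowest level of its group for 15 of the 33 genes. Scarb2 read 12.4557 in CCR2+ RbpjiΔEC array 2 (others 12.82 to 12.86), although that array was the highest of its group for 17 genes. Atp6ap1 read 12.653 in CCR2+ RbpjiΔEC array 1 (others 12.37 to 12.40). Atp6v1a read 11.5847 in CCR2- control array 4 (others 11.24 to 11.25), and Atp6v1c1 read 11.4089 in CCR2- control array 1 (others 11.26 to 11.28). The cause of these values was not tested.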

How the results depend on the processing

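No lysosomal gene was called between genotypes, or in the interaction, under any alternative run. Called genes of the whole table appeared there in ones and pairs. In CCR2+ arrays 1 gene was lower above the lowest tercile of level, with array weights and with a block on replicate number, and 2 with the mean of all probe sets. Leaving out 1 array gave 0 to 1 higher and 0 to 1 lower in either label. Without the number 2 arrays of both control groups, a choice made after seeing the data, 1 was higher in each label. Between labels, called differences turned sign for Ppt1 (−0.36 in control, −0.18 in RbpjiΔEC mice) and Atp6v0a1 (0.12 in control mice), each with the mean of all probe sets. Of the single-gene values under alternatives, 539 in control and 531 in RbpjiΔEC mice stayed on their side of the threshold, 9 and 11 gained a call, and 10 and 17 lost one. In control mice median centring gave 1 lower lysosomal gene and a median of 1.35, deposited values 1 and 1.40, and the mean of all probe sets a median of 0.84. In RbpjiΔEC mice median centring gave a median of 1.25 and deposited values 0 lower and 1.54. The median interaction was −0.19 under median centring. Leaving out 1 array gave 27 to 28 higher and 2 lower in control mice (median 0.92 to 1.07), and 25 to 27 higher and 1 to 2 lower in RbpjiΔEC mice (0.88 to 0.98), with 2 lower without CCR2- RbpjiΔEC array 3 or 4.

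Of called genes in all, 47.6% were higher in CCR2+ control arrays, 62.7% under median centring (4390 higher, 2614 lower) and 72.6% as deposited (4584 higher, 1730 lower). In RbpjiΔEC mice it was 46.3%, and 82.6% as deposited (5689 higher, 1197 lower). Deposited values moved the median of all genes by 0.26 in that comparison, −0.16 for the genotype in CCR2- arrays and 0.17 for the interaction. Atp6v0d2 was below the tercile filter and has no value there. For same-numbered CCR2+ and CCR2- arrays of 1 genotype, deviations from the group means correlated by −0.0316 to 0.403, above 0.1 in 4 of 8 pairs, and 6 of 8 arrays correlated best with their own number. That is a hint from the data, not from the design. Between genotypes the range was −0.38 to 0.194, above 0.1 in 3 of 8 pairs, with 1 of 8 best with its own number. Since not every pair was above 0.1, the numbers were not taken as a pairing. The replicate block left 28 higher and 2 lower lysosomal genes in control and 26 and 1 in RbpjiΔEC mice, where Fuca1 was no longer called (adjusted p = 0.0554). The number of arrays limits the precision.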
